A study of Mus musculus with 6 samples.

Results

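The core transcription factors of red cell formation were followed in S3 and S1 erythroblasts of mouse fetal liver. They comprised 10 genes, namely Gata1, Gata2, Zfpm1, Tal1, Lmo2, Ldb1, Tcf3, Klf1, Gfi1b and Gfi1. Every probe set whose only gene symbol in the array's annotation was one of these names was taken, which gave 14 of the 45101 probe sets on the array (10 of 18193 genes with such a probe set). S3 and S1 were sorted from livers of Balb/C embryos by antibodies to CD71, which is the transferrin receptor, to the erythroid antigen Ter119 and to markers of other lineages. S1 holds the less mature and S3 the more mature cells of that scheme, with 3 arrays each from sorts on 3 separate days. No embryo was genetically altered or treated, per the labels. The stage label gave embryonic day 13.5 for S3 and 12.5 for S1, whereas the source label gave 13.5 for all 6 arrays, so that subset and embryo age cannot be told apart if the stage label holds.

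GATA1 and GATA2 are zinc finger proteins that bind the same DNA letters, and GATA1 takes over sites held by GATA2 as red cells mature. GATA1 recruits the cofactor FOG1, the product of Zfpm1. At many erythroid enhancers GATA1 sits beside TAL1, which binds an E-box as a heterodimer with an E protein such as the products of Tcf3, and LMO2 and LDB1 bridge these proteins. KLF1 binds CACCC elements of globin and other red cell genes, and GFI1B and its relative GFI1 are repressors.

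The windows at the start sites of the members are shown for Gata2 and Tal1, the members that passed the test below, and for Klf1, Gfi1b and 1 of the 3 starts of Ldb1, which hold GATA letters. Each runs from 250 bases before to 50 bases after a start site, 5′ to 3′ on the gene's strand, from RefSeq on GRCm38.p6, which is the C57BL/6J strain and not Balb/C. Capitals mark a GATA match (GATA preceded by A or T and followed by A or G, on either strand) or an E-box match (CAGNTG on either strand).
Klf1, chr8:84901732-84902031, plus strand: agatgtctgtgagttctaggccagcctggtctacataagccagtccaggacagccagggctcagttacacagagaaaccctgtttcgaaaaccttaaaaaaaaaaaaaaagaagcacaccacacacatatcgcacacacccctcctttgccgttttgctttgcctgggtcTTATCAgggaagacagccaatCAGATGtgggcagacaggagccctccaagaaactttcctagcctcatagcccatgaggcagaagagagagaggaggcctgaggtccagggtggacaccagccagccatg
Gfi1b, chr2:28621933-28622232, minus strand: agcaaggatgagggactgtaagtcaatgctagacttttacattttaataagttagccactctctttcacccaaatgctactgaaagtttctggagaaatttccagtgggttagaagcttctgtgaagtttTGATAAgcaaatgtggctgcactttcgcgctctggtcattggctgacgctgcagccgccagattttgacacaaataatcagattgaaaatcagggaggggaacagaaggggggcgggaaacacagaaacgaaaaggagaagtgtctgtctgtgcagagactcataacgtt
Ldb1, the third start, chr19:46037021-46037320, minus strand: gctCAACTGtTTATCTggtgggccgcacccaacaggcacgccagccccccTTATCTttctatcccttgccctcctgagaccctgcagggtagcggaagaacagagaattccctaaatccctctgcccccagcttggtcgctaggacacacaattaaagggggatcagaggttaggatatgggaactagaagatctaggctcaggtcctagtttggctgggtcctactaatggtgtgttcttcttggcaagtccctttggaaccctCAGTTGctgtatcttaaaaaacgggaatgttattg
Tal1, upstream start, chr4:115056176-115056475, plus strand: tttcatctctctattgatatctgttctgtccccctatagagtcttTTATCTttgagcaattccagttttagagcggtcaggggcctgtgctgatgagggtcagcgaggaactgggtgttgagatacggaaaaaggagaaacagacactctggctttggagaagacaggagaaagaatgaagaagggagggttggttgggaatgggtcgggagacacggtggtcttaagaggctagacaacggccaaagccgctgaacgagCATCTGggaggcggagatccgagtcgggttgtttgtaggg
Tal1, downstream start, chr4:115057561-115057860, plus strand: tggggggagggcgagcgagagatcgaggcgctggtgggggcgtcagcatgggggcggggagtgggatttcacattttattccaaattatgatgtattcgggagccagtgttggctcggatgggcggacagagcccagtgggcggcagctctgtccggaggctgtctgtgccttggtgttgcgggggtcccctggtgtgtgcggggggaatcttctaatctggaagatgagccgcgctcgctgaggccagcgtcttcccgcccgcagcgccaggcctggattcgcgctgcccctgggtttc
Gata2, upstream start, chr6:88193641-88193940, plus strand: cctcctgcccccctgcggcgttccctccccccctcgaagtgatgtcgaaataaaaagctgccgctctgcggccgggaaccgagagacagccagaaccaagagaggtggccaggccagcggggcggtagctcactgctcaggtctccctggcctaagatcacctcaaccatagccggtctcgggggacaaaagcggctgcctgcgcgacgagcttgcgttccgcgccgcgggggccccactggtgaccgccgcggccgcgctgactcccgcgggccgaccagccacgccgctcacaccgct
Gata2, downstream start, chr6:88198414-88198713, plus strand: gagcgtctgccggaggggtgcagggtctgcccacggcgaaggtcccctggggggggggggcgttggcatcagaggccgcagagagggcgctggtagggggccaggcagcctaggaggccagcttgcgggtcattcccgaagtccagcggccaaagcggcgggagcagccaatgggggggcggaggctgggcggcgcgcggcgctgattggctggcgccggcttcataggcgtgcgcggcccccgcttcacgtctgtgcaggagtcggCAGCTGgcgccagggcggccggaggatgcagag

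Windows were matched for 9 of the 10 members by symbol, 14 windows in all, and that of Lmo2 was not used here. GATA letters stood in 4 of the 14 windows, compared with 29.8% of all 32851 windows of this length. E-box letters stood in 5 of the 14, compared with 51.4% of all. In the Klf1 window a GATA match on the reverse strand (TTATCA) began 80 bases before the start and an E-box (CAGATG) 59 bases before it. The Ldb1 window shown held TTATCT from 240 and again from 200 bases before its start, beside 2 E-boxes, and is the only member window with more than 1 GATA match. Gfi1b held TGATAA from 120 bases before its start, and the upstream Tal1 window held TTATCT from 205 bases before. A CACCC element (CCNCACCC on either strand), which 16.6% of all windows held, was found in 3 of the 14, those of Gata1, Tcf3 and 1 of the 3 starts of Ldb1. No base of a member window lay in matches of more than 1 of these motifs. These are matches of letters in short windows, and binding was not measured.

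All values are log2 signals of an expression array, as the authors deposited them, and a change is the S3 mean minus the S1 mean with its standard error (SE). A change passed the test at an adjusted p under 0.05 in limma's moderated test across 27022 probe sets, those whose mean over the 6 arrays exceeded the 40th percentile. Of these, 436 were higher in S3 (1.61%) and 1801 lower (6.66%), 8.28% in either direction, and 19.5% of those called were higher. The median change of all probe sets was -0.24, and moved to -0.01 with each array centred on its median (39.5% higher) and to 0.02 with quantile normalization (43.7% higher). Background per array, set from bacterial control probe sets, was 1.01 to 1.74. The 3 arrays S3 replicate 2, S1 replicate 1 and S1 replicate 2 read the 5′ actin control far below the 3′ one (a log2 difference of -2.59 to -2.08) and are called short. The 3 arrays S3 replicate 1, S3 replicate 3 and S1 replicate 3 read it only -0.56 to -0.45 below and are called long. Short and long arrays were separated by the leading component of variation within subsets (57.4% of it), and both subsets hold both kinds. Of 9 erythroid marker genes 8 had a probe set, and these were above background on all 6 arrays. The summed linear signal of 9 macrophage markers was 37.5 to 93.9 in S3 and 30.1 to 120.3 in S1, of 7 lymphoid markers 3.50 to 4.86 in S3 and 3.99 to 10.8 in S1, and of 6 hepatocyte markers 245 to 984 in S3 and 272 to 326 in S1. Of these, 5 macrophage and 6 hepatocyte markers were tested and none was called, while 0 lymphoid markers passed the filter, so none could be called. The changes of 4 hepatocyte markers were above zero and of 2 below, with a median of 1.04, beside -0.33 for all genes. With short and long arrays as a block in the fit, the hepatocyte marker Ttr was higher in S3 (1.10, limma adjusted p = 0.0212), where 4.99% of all genes were.

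Of the 10 core factors, 9 passed the filter on low values and 1, Gfi1, did not. By the brightest tested probe set of each gene, Tal1 was higher in S3, Gata2 was lower, and the other 7 did not pass the test. Among all 11959 genes, 2.02% were higher, 9.62% lower and 11.6% called in either direction. The median change of the 9 factors was 0.04, beside -0.33 for all genes. Signals of S3 and S1 did not overlap for 3 of the 9 (Gata2, Tal1 and Tcf3), compared with 35.3% of all genes (5.81% higher and 29.5% lower in S3; among the 9 factors 1 higher and 2 lower). The plot of signals by array shows each probe set.

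**Figure D1:**
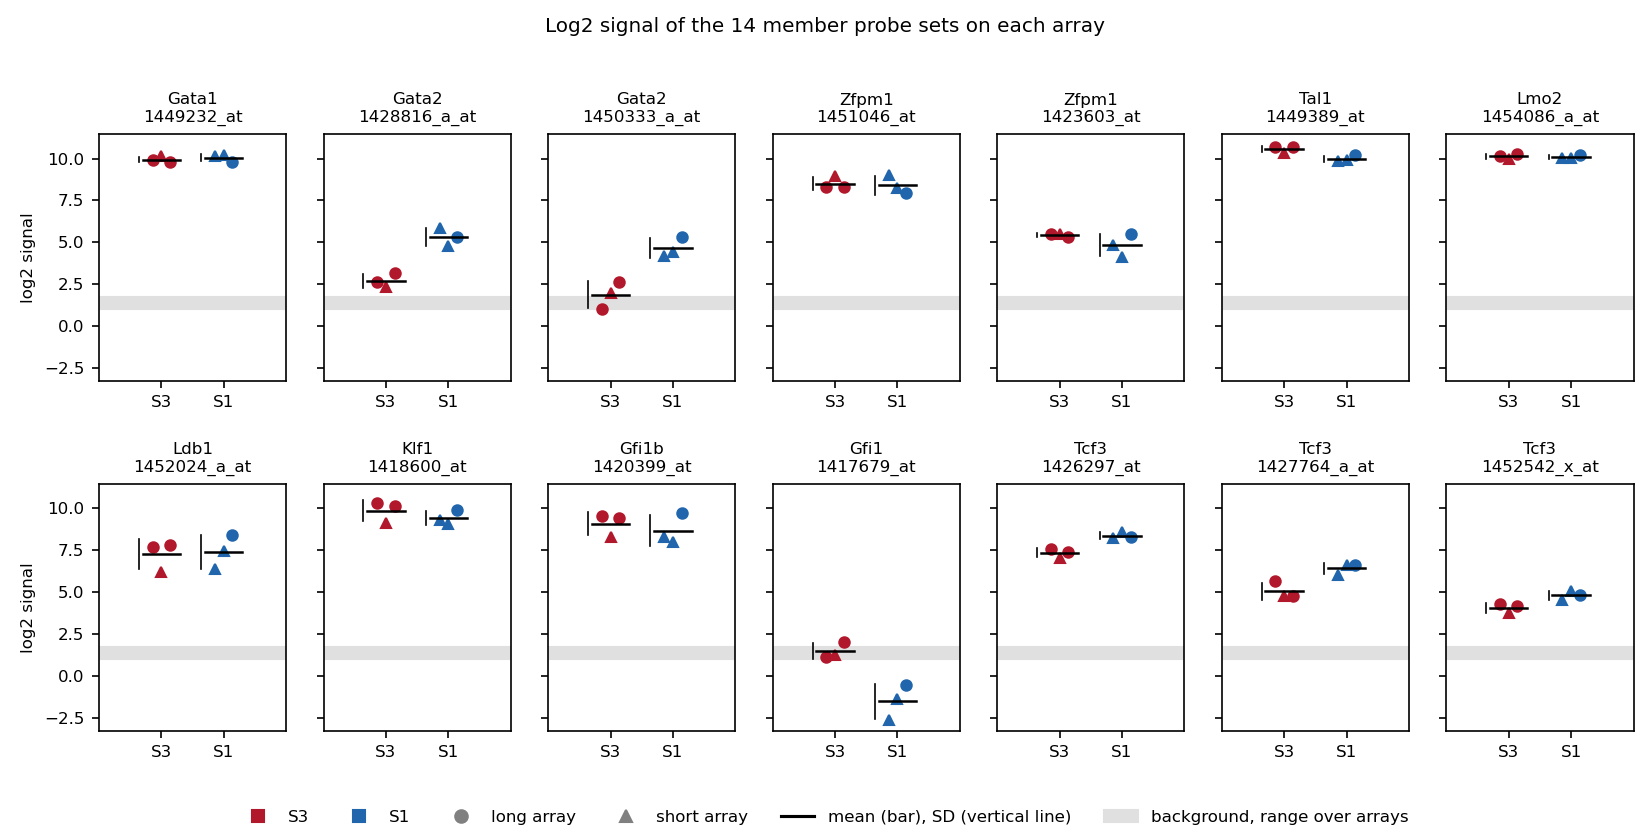
Log2 signal of each of the 14 probe sets (1 panel each, with gene and probe set name) in S3 (red, left) and S1 (blue, right). Circles are long and triangles short arrays, the horizontal bar is the mean and the vertical line the SD of 3 arrays, and the grey band is the range of background. Both Gata2 probe sets lie lower in every S3 array than in any S1 array, while the Gata1, Zfpm1 and Lmo2 points of the subsets overlap.

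Gata2, which marks stem and progenitor cells and is a known target of GATA1 repression, was lower in S3 on both of its probe sets. The brighter, 1428816_a_at, read 2.59, 2.34 and 3.15 on the S3 arrays, against 5.84, 4.77 and 5.34 on the S1 arrays. Every S3 array lay below every S1 array, with a gap of 1.63, and all 6 readings were above background. The mean fell to 2.69 ± 0.41 in S3, against 5.32 ± 0.54 in S1 (SD, n = 3 arrays each), a 6.16-fold lower signal (log2 change -2.62 ± 0.50 (SE), limma adjusted p = 0.0219). In sorted bulk cells a smaller share of Gata2-expressing cells and less Gata2 RNA per cell cannot be told apart, here and for every gene below. The dimmer, 1450333_a_at, read 0.98, 1.98 and 2.59 in S3, of which 2 of 3 were above background, and 4.19, 4.42 and 5.32 in S1. Its change was -2.79 ± 0.60 (SE, limma adjusted p = 0.0332), and the call was lost in each of the 6 fits without 1 array (adjusted p = 0.0573 to 0.111) and with no filter on low values (adjusted p = 0.0560). Relative to the median of all probe sets the brighter one changed by -2.39. Within the long arrays alone its change was -2.47, and within the short arrays alone -2.96. Leaving out S3 replicate 2 kept the call of the brighter probe set, whereas leaving out any other array moved the limma adjusted p above 0.05 (0.0536 to 0.0848) with changes of -2.90 to -2.36.

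Gata2 is also expressed by mast cells, endothelium and myeloid progenitors. The summed linear signal of 8 mast cell markers was 7.35 to 20.7 in S3 and 9.49 to 18.3 in S1, and Cpa3, a mast cell protease, exceeded background on 0 of 3 S3 arrays and on 1 of 3 S1 arrays. Of these 8, Mcpt4, Tpsab1 and Fcer1a exceeded it on 0 arrays, Tpsb2 on all 6 (2.07 in S3 and 2.08 in S1 on average), Cma1 on 2 arrays of each subset, and Ms4a2 and Hdc on 1 array each. The summed signal of 6 endothelial markers was 7.62 to 14.3 in S3 and 14.3 to 19.0 in S1, with none above background on all 6 arrays and Tek and Emcn on 0. Stab2 exceeded it on 1 of 3 S3 and 3 of 3 S1 arrays (0.49 in S3 and 1.85 in S1 on average). Cdh5 exceeded it on 2 S3 and 3 S1 arrays (1.72 and 2.19). Neither was called (limma adjusted p = 0.328 and 0.791). Pecam1 exceeded background on 1 S3 array and 0 S1 arrays, and Kdr on 1 S3 array and 2 S1 arrays. Of 8 granulocyte-monocyte markers, whose sums overlapped (15.6 to 148 in S3, 20.8 to 104 in S1), the protease gene Prtn3 was lower in S3 (-2.94 ± 0.58 (SE), limma adjusted p = 0.0239), while Elane, Ctsg and Csf3r exceeded background on 0 arrays. Prtn3 exceeded it on 1 of 3 S3 arrays and on 3 of 3 S1 arrays, so the size of its change is uncertain. S100a8 averaged 3.72 in S3 and 2.15 in S1 and S100a9 3.60 in S3 and 1.13 in S1, without being called (limma adjusted p = 0.585 and 0.609), and Mpo and Ms4a3 were not called either. The part of such cells in the lower Gata2 signal was not tested.

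Gata1, the master regulator of red cell maturation, did not pass the test. Its probe set, 1449232_at, read 9.88, 10.13 and 9.81 on the S3 arrays, against 10.13, 10.24 and 9.82 on the S1 arrays. The readings of the subsets overlapped, and the means were 9.94 ± 0.17 in S3 and 10.06 ± 0.22 in S1 (SD, n = 3 arrays each). The change was -0.12 ± 0.15 (SE, limma adjusted p = 0.742) with a 95% interval of -0.48 to 0.23, and its sign turned with median centring (0.11) and quantile normalization (0.03). Relative to the median of all probe sets the change was 0.12. The other GATA genes were dim. Gata5 read 1.53 ± 0.38 in S3 and 1.60 ± 0.80 in S1 (SD, n = 3 arrays each), above background on 2 arrays of each subset, and Gata3, Gata4 and Gata6 did not pass the filter.

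Because the scaling of an array cancels in a difference between probe sets of that array, Gata1 was also set against Gata2 within each array. Probe sets differ in sensitivity, so only the shift of this difference between subsets is informative. Gata1 minus Gata2 was 7.29, 7.78 and 6.66 in the S3 arrays and 4.29, 5.46 and 4.48 in the S1 arrays. All S3 arrays lay above all S1 arrays. The difference was larger by 2.50 in S3 (7.24 ± 0.56 in S3, 4.74 ± 0.63 in S1, SD, n = 3 arrays each), a 5.66-fold shift of the Gata1 to Gata2 ratio. A two-sided exact permutation test gave p = 0.1, the smallest that 20 splits of 3 and 3 arrays allow. That pair was chosen with the fall of Gata2 already known. The shift is made up of the changes of Gata2 (-2.62) and Gata1 (-0.12), so it is no separate support for that fall.

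**Figure D2:**
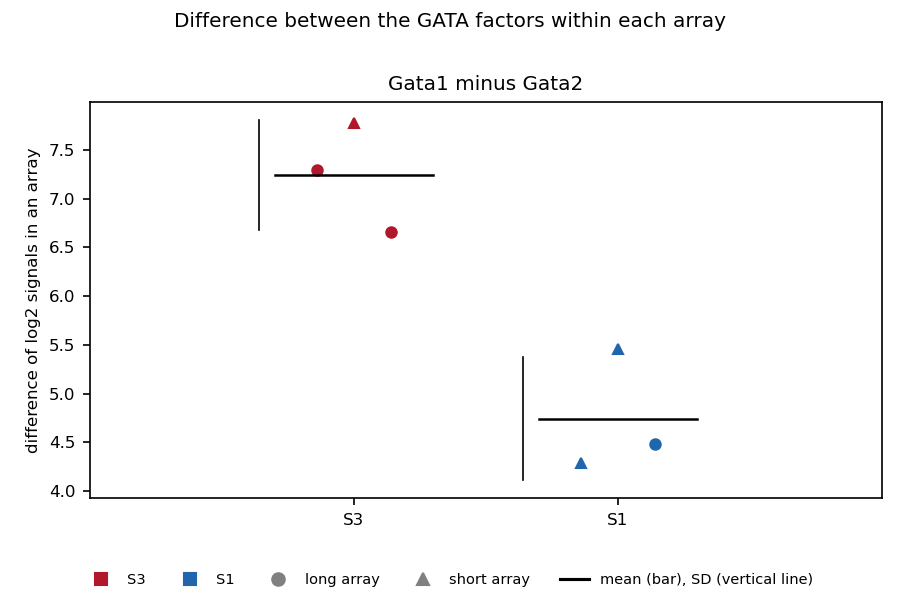
Difference of log2 signals, Gata1 minus Gata2, within each array (vertical axis) in S3 (red, left) and S1 (blue, right). Circles are long and triangles short arrays, the bar is the mean and the vertical line the SD of 3 arrays. The Gata1 to Gata2 difference is 7.24 in S3 and 4.74 in S1, and the vertical axis does not start at zero.

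Zfpm1, which encodes the GATA1 cofactor FOG1, did not pass the test on either probe set. The brighter, 1451046_at, read 8.27, 8.93 and 8.32 in S3, against 9.02, 8.24 and 7.92 in S1. The subsets overlapped (change 0.11 ± 0.34 (SE), limma adjusted p = 0.906, 95% interval -0.67 to 0.90). The dimmer, 1423603_at, read 5.48, 5.51 and 5.32 in S3 and 4.85, 4.14 and 5.49 in S1. Its change was 0.61 ± 0.48 (SE, limma adjusted p = 0.559), with 1 S1 array among the S3 readings. The annotation gives both probe sets the same source transcript, yet the brighter read higher on short arrays than on long ones (0.67, limma adjusted p = 0.0439) and the dimmer lower (-0.44, limma adjusted p = 0.419).

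**Figure D3:**
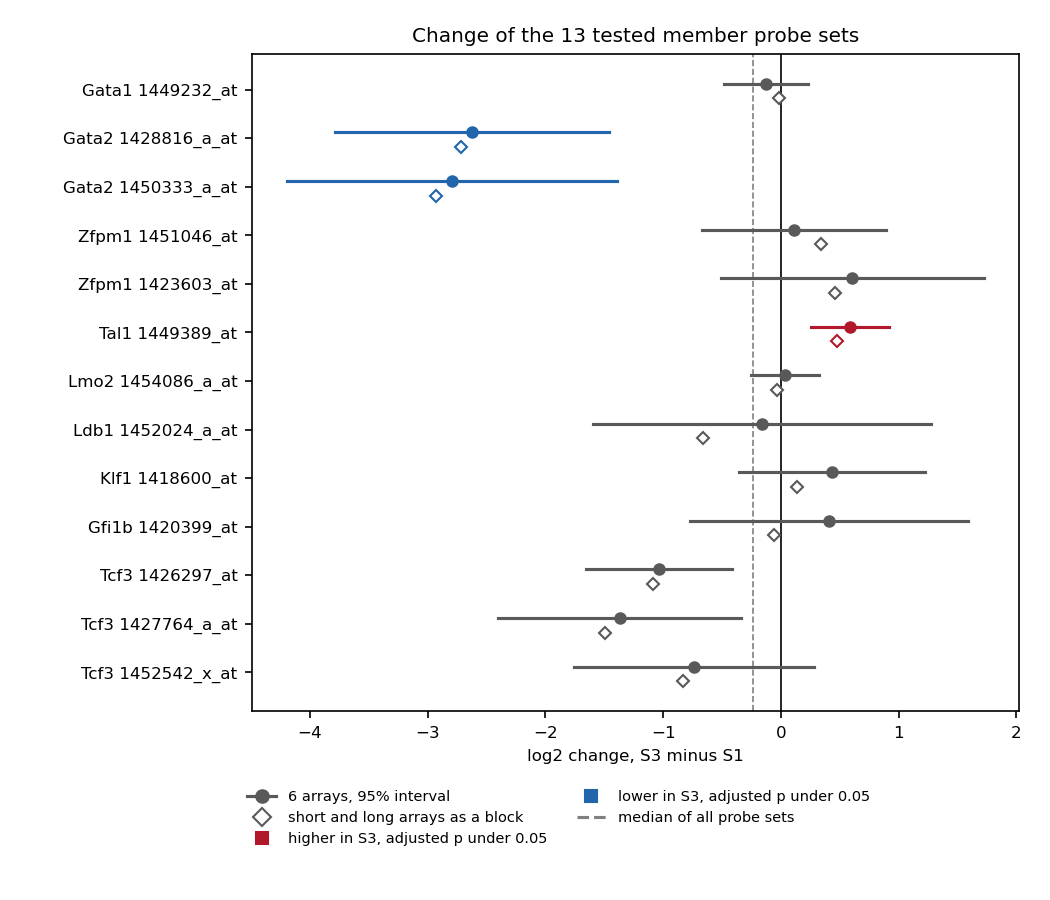
Log2 change, S3 minus S1, of the 13 tested probe sets of 9 core factors (rows) with 95% intervals (filled circles and lines), and the change with short and long arrays as a block (open diamonds). Both Gata2 probe sets (-2.62 and -2.79) lie far left of zero and Tal1 (0.59) right of it, while the interval of Gata1 reaches from -0.48 to 0.23.

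Tal1, the basic helix-loop-helix factor of the complex, was higher in S3. Its probe set, 1449389_at, read 10.70, 10.35 and 10.67 on the S3 arrays, against 9.85, 9.93 and 10.19 on the S1 arrays. Every S3 array lay above every S1 array, by a gap of 0.16. The mean was 10.58 ± 0.20 in S3 and 9.99 ± 0.18 in S1 (SD, n = 3 arrays each), a modest rise (log2 change 0.59 ± 0.14 (SE), limma adjusted p = 0.0464). This call was close to the threshold. It was lost with median centring (0.82, adjusted p = 0.117), with no filter on low values (adjusted p = 0.0861), with no intensity trend (adjusted p = 0.307) and without S1 replicate 1, S1 replicate 2, S3 replicate 1 or S3 replicate 3 (adjusted p = 0.141 to 0.170 by limma). Within the long arrays the change was 0.50 and within the short arrays 0.46. With the array class as a block Tal1 passed (0.48 ± 0.08 (SE), limma adjusted p = 0.00355), where 4.99% of all genes were higher.

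TAL1, LMO2, GATA1 and GFI1B are also factors of megakaryocytes, the platelet precursors. The summed linear signal of 8 megakaryocyte markers was 367 to 407 in S3 and 91.6 to 203 in S1, without overlap. Of these 8, Vwf, the von Willebrand factor gene, was higher in S3 (2.72 ± 0.63 (SE), limma adjusted p = 0.0402) and the other 7 did not pass. The change was above zero for 7 of the 8 and below it for 1, Itga2b. For 5 of the 8 every S3 array lay above every S1 array, compared with 5.81% of all genes. With the array class as a block 2 were higher, where 4.99% of all genes were. Pf4, platelet factor 4, read 7.80 ± 0.06 in S3 and 5.96 ± 1.42 in S1 (SD, n = 3 arrays each), and Itga2b, the platelet integrin alpha chain, 3.80 ± 0.60 in S3 and 4.11 ± 0.60 in S1 (SD, n = 3 arrays each). Their part in the Tal1 signal was not tested.

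Lmo2, the bridging LIM protein, did not pass the test, and its change had the narrowest interval of the tested core factors. Its probe set, 1454086_a_at, read 10.14, 9.98 and 10.26 in S3, against 10.05, 10.01 and 10.21 in S1. The change was 0.04 ± 0.12 (SE, limma adjusted p = 0.920), with a 95% interval of -0.25 to 0.32. Ldb1, which joins LMO2 complexes to each other and loops enhancers to promoters, varied far more between arrays than between subsets. Its probe set, 1452024_a_at, read 7.71, 6.22 and 7.83 in S3 and 6.39, 7.46 and 8.39 in S1. The change was -0.16 ± 0.62 (SE, limma adjusted p = 0.932), and its 95% interval of -1.59 to 1.28 leaves the direction unknown. Its sign turned with median centring (0.07) and quantile normalization (0.15). Short arrays read Ldb1 lower than long arrays (-1.51, limma adjusted p = 0.00542). With the class as a block the change was -0.66 ± 0.28 (SE, limma adjusted p = 0.116).

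Tcf3, which encodes the E proteins E12 and E47 that pair with TAL1, read lower in S3 on all 3 of its probe sets but did not pass the test. The brightest, 1426297_at, read 7.60, 7.06 and 7.38 on the S3 arrays, against 8.26, 8.60 and 8.30 on the S1 arrays. Every S3 array lay below every S1 array, with a gap of 0.65 (change -1.04 ± 0.27 (SE), limma adjusted p = 0.0568). The probe set 1427764_a_at read 5.64, 4.76 and 4.77 in S3 and 6.04, 6.60 and 6.64 in S1 (-1.37 ± 0.44 (SE), limma adjusted p = 0.111). The dimmest, 1452542_x_at, whose name ending marks probes that can match other transcripts, read 4.31, 3.73 and 4.15 in S3 and 4.52, 5.05 and 4.83 in S1 (-0.74 ± 0.44 (SE), limma adjusted p = 0.401). The brightest passed with a filter at the 60th percentile (limma adjusted p = 0.0442) and with 1 probe set per gene in the fit (adjusted p = 0.0369). It also passed with the array class as a block (-1.09, limma adjusted p = 0.00413), where 36.3% of all genes were lower. It did not pass with median centring (-0.81, limma adjusted p = 0.233) or quantile normalization (-0.69, adjusted p = 0.182). With the class block and median centring it did not pass either (-0.64, limma adjusted p = 0.169). Relative to the median of all probe sets the brightest changed by -0.80.

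Klf1, the erythroid Krüppel-like factor, overlapped between subsets and followed the array class. Its probe set, 1418600_at, read 10.31, 9.15 and 10.16 in S3, against 9.31, 9.08 and 9.93 in S1. The 3 highest readings came from the 3 long arrays, of which 2 are S3 and 1 is S1. The change was 0.44 ± 0.34 (SE, limma adjusted p = 0.548), with a 95% interval of -0.35 to 1.23. Within the long arrays it was 0.31 and within the short arrays -0.04, and with the class as a block (which called 41.3% of all genes, 4.99% higher and 36.3% lower) 0.13 ± 0.13 (SE, limma adjusted p = 0.481). Short arrays read Klf1 lower than long arrays (-0.91, limma adjusted p = 0.00145).

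Gfi1b, the repressor that acts in red cells and megakaryocytes, likewise overlapped between subsets and differed by array class. Its probe set, 1420399_at, read 9.55, 8.28 and 9.43 in S3, against 8.28, 8.02 and 9.74 in S1, and the highest reading was an S1 array. The change was 0.41 ± 0.51 (SE, limma adjusted p = 0.739; 95% interval -0.77 to 1.59). It turned to -0.06 ± 0.14 (SE, limma adjusted p = 0.819) with the class as a block, and short arrays read Gfi1b lower than long arrays (-1.40, limma adjusted p = 5.06e-04). Among the 9 factors, 6 differed between short and long arrays, 4 lower (Tal1, Ldb1, Klf1 and Gfi1b) and 2 higher (Gata1 and Zfpm1) on the short ones. Over all genes that share was 35.2%, and over all probe sets 31.8%.

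Gfi1, a repressor of stem and myeloid cells, was near background. Its probe set, 1417679_at, read 1.14, 1.25 and 2.03 in S3, each just above that array's background, and -2.62, -1.41 and -0.55 in S1, none above it. With S1 raised to background it was at least 1.10-fold higher in S3. It did not pass the filter on low values, and in the fit with no filter it was not called (3.00 ± 0.81 (SE), limma adjusted p = 0.0870). Its S1 readings carry only a bound, so no difference between Gfi1b and Gfi1 is given.

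Partners and cofactors of the GATA1 and TAL1 complex included 4 genes that fell in S3. Of 26 listed genes 25 had a probe set and 21 were tested, of which 0 rose, 4 fell and 17 did not pass in limma (0 higher and 7 lower at an unadjusted p under 0.05). Their median change was -0.51, beside -0.33 for all genes, of which 9.62% were lower. Cbfa2t3, the ETO2 corepressor that binds the TAL1 complex, read 7.51 ± 0.14 in S3 and 9.21 ± 0.51 in S1 (SD, n = 3 arrays each; -1.70 ± 0.29 (SE), limma adjusted p = 0.0156). Tcf4, a second E protein, read 6.65 ± 0.57 in S3 and 8.57 ± 0.20 in S1 (SD, n = 3 arrays each; -1.92 ± 0.36 (SE), limma adjusted p = 0.0196). The third E protein, Tcf12, was not called (-0.22 ± 0.62 (SE), limma adjusted p = 0.902), nor was Lyl1, the closest relative of Tal1 (0.46 ± 0.26 (SE), limma adjusted p = 0.380), both named outside the rule for named genes after their values were seen. The acetyl-lysine reader Brd3 (-1.12 ± 0.23 (SE), limma adjusted p = 0.0261) and the deacetylase Hdac2 (-0.97 ± 0.21 (SE), limma adjusted p = 0.0349) also fell. With the array class as a block 14 of the 21 were lower, where 36.3% of all genes were, and 2 with that block and median centring. Median centring and no intensity trend left 1 each (the median of the list was -0.28 with median centring), and the mean over the probe sets of a gene left 2. In the short arrays alone none passed. Without S1 replicate 1 or S3 replicate 3 none passed, without S1 replicate 2, S1 replicate 3 or S3 replicate 1 only 1 did, and without S3 replicate 2 there were 3.

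Id proteins, which sequester E proteins away from TAL1, were not called in the main test. Of 4 listed genes 3 were tested, and limma called 0, with 0 at an unadjusted p under 0.05. Id1 read 4.11 ± 0.31 in S3 and 5.19 ± 0.84 in S1 (SD, n = 3 arrays each; -1.08 ± 0.55 (SE), limma adjusted p = 0.312), and Id2 read 3.22 ± 1.05 in S3 and 2.63 ± 1.11 in S1 (SD, n = 3 arrays each; 0.59 ± 0.78 (SE), limma adjusted p = 0.756). With the array class as a block Id1 was lower (-1.40, limma adjusted p = 0.0179), where 36.3% of all genes were. With that block and median centring 0 of the 3 were called.

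Genes known to be activated by GATA1 or KLF1 were largely higher in S3. Of 30 listed genes 27 had a probe set and 26 were tested, of which 17 rose, 0 fell and 9 did not pass in limma (19 higher and 1 lower at an unadjusted p under 0.05). Among all genes 2.02% were higher. The median change of the list was 1.72, beside -0.33 for all genes. Alas2, the red cell enzyme that begins heme synthesis, read 10.59, 10.09 and 10.50 in S3, against 4.75, 5.30 and 6.48 in S1 (4.88 ± 0.44 (SE), limma adjusted p = 0.00423). The embryonic beta-like globin Hbb-bh1 (4.22 ± 0.43 (SE), adjusted p = 0.00482), the mitochondrial iron importer Slc25a37 (1.61 ± 0.18 (SE), adjusted p = 0.00499) and the band 3 anion exchanger Slc4a1 (2.45 ± 0.27 (SE), adjusted p = 0.00499, all by limma) were higher too. The names of the Hbb-bh1 and Slc4a1 probe sets end in _x_at, which marks probes that can match other transcripts. With the array class as a block, which called 4.99% of all genes higher and 36.3% lower, 19 were higher and 2 lower. The 2 were the water channel gene Aqp1 (-0.99, adjusted p = 0.00646) and the repressor gene Bcl11a (-0.90, adjusted p = 7.78e-04, both by limma), named after their values were seen. With no intensity trend 10 were higher, and in the short arrays alone none. Without S1 replicate 2 there were 11, and without S1 replicate 1, S3 replicate 1 or S3 replicate 3 there were 10, each counted from its own fit.

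Progenitor genes known to be repressed by GATA1 or GFI1B were largely lower in S3. Of 12 listed genes 11 had a probe set and 10 were tested, of which 6 fell, 0 rose and 4 did not pass in limma (8 lower and 0 higher at an unadjusted p under 0.05). The median change was -2.32, beside -0.33 for all genes, of which 9.62% were lower. Kit, the stem cell factor receptor, exceeded background on 0 of 3 S3 arrays and was at least 86.7-fold lower in S3 (0.84 ± 0.15 in S3, 7.68 ± 0.85 in S1, SD, n = 3 arrays each; limma adjusted p = 0.00423). Myb, a progenitor transcription factor, read 6.96, 6.82 and 6.80 in S3, against 10.44, 10.50 and 10.36 in S1 (-3.57 ± 0.18 (SE), limma adjusted p = 0.00193). The name of its probe set also ends in _x_at. The homeobox gene Hhex (-3.39 ± 0.51 (SE), adjusted p = 0.0105) and the cell cycle kinase gene Cdk6 (-4.00 ± 0.63 (SE), adjusted p = 0.0120, both by limma) fell as well. With the class as a block 8 fell, where 36.3% of all genes were lower. With quantile normalization 4 of the 10 fell, without S1 replicate 1 only 3 did, and in the short arrays alone none.

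**Figure D4:**
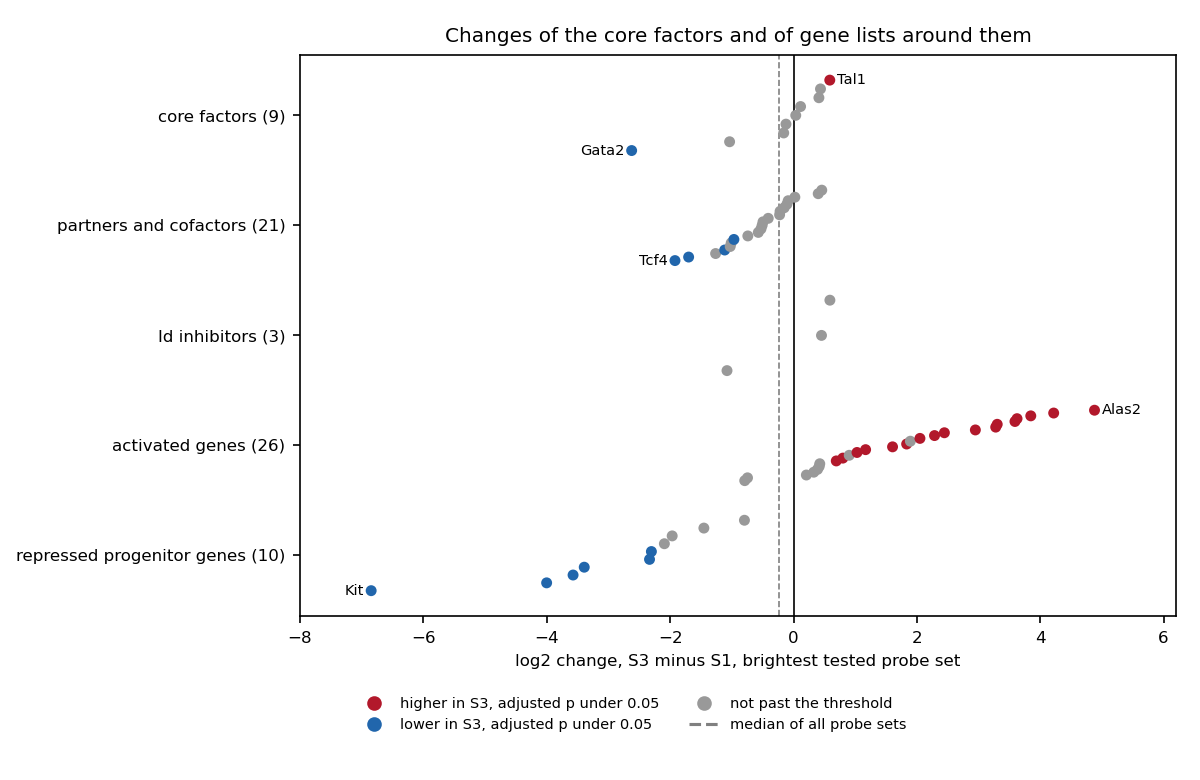
Log2 change, S3 minus S1, of the tested core factors and of 4 gene lists around them (rows, with the number of genes tested), each point the brightest tested probe set of a gene. Red points were higher and blue points lower at an adjusted p under 0.05, grey points did not pass, the dashed line is the median of all probe sets (-0.24), and a few called genes are named. The activated genes reach 4.88 (Alas2) on the right, while Gata2 (-2.62) stands left of the other core factors.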

How the data were processed

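RNA of sorted S3 and S1 cells was amplified, labelled with biotin and hybridised to an Affymetrix whole-genome mouse array, per the series' design text and the labels. The authors computed MAS5 signals and normalized them to 18S rRNA, Gapdh and beta-actin probe sets, per that text, with no version named there. Log2 signals were deposited (base 2 was inferred from their range) and were used as they are. Each subset had 3 replicate arrays.

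Probe sets were named from GEO's platform annotation where it gives 1 symbol. Of the 45101 probe sets, 64 were controls, 34945 had 1 symbol, 932 several and 9160 none. The difference of S3 and S1 was estimated by limma 3.58.1 under R 4.3.3 (intensity trend, two-sided, Benjamini-Hochberg over 27022 probe sets), with 4 residual and 3.76 prior degrees of freedom, and tested on simulated arrays. Background was the 95th percentile of 27 bacterial control probe sets per array, and at-least folds use values raised to it. Named genes were all members and, of each list, up to 4 called genes with the smallest p, or the 2 smallest where none was called. The members, lists and array classes were chosen with earlier results of these data known. List genes without a probe set of 1 symbol are not analysed here.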

Additional observations from a re-analysis of the deposited data

How the results depend on the processing

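Across 19 alternatives planned for the 9 tested core factors, 134 of 171 changes kept their direction and side of the threshold, 14 kept the direction and lost the call, 5 gained it and 18, all of factors that were not called, turned their sign. Gata2 stayed negative (-2.96 to -2.27) and Tal1 positive (0.46 to 0.93) in all 19, and Tcf3 negative (-1.36 to -0.64). Gata2 was called in 13, Tal1 in 11 and Tcf3 in 4, of which the long arrays alone rest on 1 S1 array. The causes were not tested.

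The long arrays are 2 of S3 and 1 of S1, and the short arrays 1 of S3 and 2 of S1, so in fits on either kind alone the lone array is assumed to vary like the pair. Counts of called probe sets were 748 higher and 1144 lower with median centring, 1096 higher with quantile normalization, 254 and 1142 with no intensity trend, 241 and 991 with the mean over the probe sets of a gene (fewer features tested), 1125 and 7618 with short and long arrays as a block, 1617 higher with that block and median centring, and 1170 and 7040 in the long arrays alone. In the short arrays alone limma called 0 and 0 (688 higher and 5205 lower at an unadjusted p under 0.05), and 0 core factors in either direction. Leaving out each array in turn gave 95 to 488 higher and 314 to 1282 lower probe sets, with 0 to 1 core factors higher and 0 to 1 lower. Core factors called higher were 0 with median centring, no filter on low values or no intensity trend. Core factors called lower were 2 of 9 with a filter at the 60th percentile, with the brightest probe set per gene in the fit and with the class block (Gata2 and Tcf3 each time). Features called lower in those settings were 1876 of 18015, 1533 of 11959 and 7618 of 27022. Those called in either direction were 12.9%, 15.3% and 32.4%, and the class block called 36.3% of genes lower. In the long arrays alone, with their lone S1 array, the changes were -2.47 for Gata2, -0.81 for Tcf3 and -0.62 for Ldb1. The unadjusted counts of core factors in the main test were 1 higher and 2 lower.

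Signs turned as follows. Gata1 was 0.11 with median centring, 0.030 with quantile normalization, 0.43 with the class block and median centring, and 0.028 in the long arrays alone. Ldb1 was 0.072 with median centring and 0.15 with quantile normalization. Lmo2 was -0.032 with the class block, -0.011 in the long and -0.053 in the short arrays alone. Gfi1b was -0.055 with the class block and -0.25 in the long arrays alone, and Klf1 was -0.039 in the short arrays alone. Leaving out arrays spanned -0.12 to 0.43 for Zfpm1, -0.67 to 0.36 for Ldb1 and -0.031 to 0.11 for Lmo2; the turned values were -0.12 (without S1 replicate 3) and -0.10 (without S3 replicate 2) for Zfpm1, 0.33 and 0.36 without the same arrays for Ldb1, and -0.0064 (without S1 replicate 2) and -0.031 (without S3 replicate 3) for Lmo2.

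With the replicate number as a block 634 probe sets were higher and 2308 lower, and the core factors called were again 1 higher (Tal1) and 1 lower (Gata2). Deviations of same-numbered arrays correlated at r = 0.02, 0.39 and 0.41 across probe sets, S3 replicate 1 correlated best with S1 replicate 3, and the labels do not tie a number to a sorting day, so the pairing was not used. Signal near background limits Gfi1 and the dimmer Gata2 probe set.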
